A study of Cornus officinalis with 7 samples.

Results

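The first part of the iridoid pathway, from geranyl diphosphate to the iridoid ring, was followed through 5 unigenes of *C. officinalis* out of 304371 in the assembly. They were chosen by identifier: Unigene035419 is annotated by the study as geranyl diphosphate synthase (GPPS), Unigene036779 as geraniol synthase (GES), Unigene122572 and Unigene035769 as 8-hydroxygeraniol oxidoreductase (8HGO), and Unigene107858 as iridoid synthase (IS). The study took 4 of the 5, all but Unigene035769, among its 31 iridoid candidates because they were co-expressed in these same libraries, and the tissue values of all 5 were known when they were chosen. Every level and correlation given for them is therefore a description, with no test.

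RNA was sequenced from the pericarp, the seed, the inflorescence and the young and mature stages of stem and leaf of *C. officinalis*, a medicinal tree grown in a garden without treatment. The labels give an age of 12 years and 1 plant material identifier for all tissues, and each tissue is represented by 1 library. No difference between tissues has a replicate check, so neighbouring tissues in an order of levels cannot be called different. The mature stem library, in which 4 of the 5 unigenes were listed at 0, stands apart from the rest, and only the other 6 tissues are described here. The values are FPKM, fragments scaled to unigene length and to the mapped total of the library, so levels of different unigenes can be compared per length. Relative to young stem, the deepest library, 1 fragment was worth between 1.06 times the FPKM in seed and 1.74 times in inflorescence. Pathway lists are the only annotation used, so the tissue labels were not checked against marker genes.

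Iridoids are monoterpenoids in which a chain from geranyl diphosphate is closed to a cyclopentane ring fused to an oxygen-containing ring. GPPS joins the universal isoprenoid units into geranyl diphosphate, GES releases geraniol from it, and geraniol 10-hydroxylase (G10H), a cytochrome P450, adds a hydroxyl group. 8HGO, an alcohol dehydrogenase, then oxidizes both ends of the molecule to a dialdehyde, and IS, a reductase related to progesterone 5β-reductases, reduces that dialdehyde so that the ring can close. The later enzymes add a carboxyl group, a glucose and a methyl ester, which leads to loganin and secologanin. In *Cornus*, loganin and morroniside are the best known products, and the fruit is the part used as medicine.

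The 5 unigenes differed most in how high and how widely they were expressed. Both 8HGO unigenes were among the most abundant unigenes of the plant in nearly every tissue, the GPPS unigene was moderate and steady, the IS unigene was low, and the GES unigene was above 0 in young stem only. In a bulk tissue, fewer cells that express a gene and less RNA per cell cannot be told apart.

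**Figure D1:**
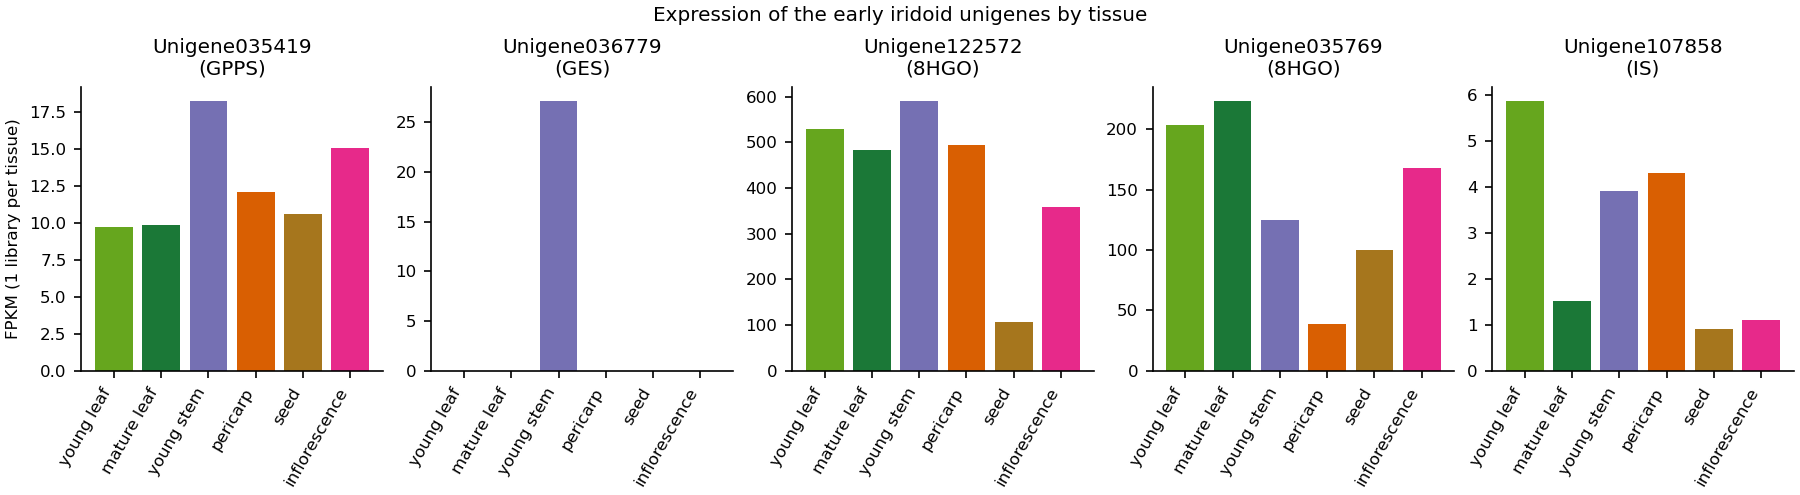
FPKM (y axis, starting at 0, with its own scale in each panel) of the 5 early iridoid unigenes in 6 tissues (x axis), where each bar is 1 library. The GES unigene has a single bar, at 27.18 in young stem, while Unigene122572 is lowest in seed, at 106.56, and Unigene035769 is lowest in pericarp, at 38.48.

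The GPPS unigene, Unigene035419, encodes by its annotation an enzyme that makes the entry substrate of the pathway. It peaked at an FPKM of 18.28 in young stem, ahead of 15.08 in inflorescence and 12.11 in pericarp, whereas seed had 10.58, mature leaf 9.90 and young leaf 9.70. It was thus highest in young stem and lowest in the leaves, and the highest value was 1.88 times the lowest. This was a narrow range: over the 26769 unigenes whose FPKM was 1 or more in each of the 6 tissues, the median of the same ratio was 3.21, and 12.0% had a smaller one. Neighbouring tissues in its order were 1.02 to 1.25 times apart. In each tissue it lay above between 90.0% and 94.9% of the unigenes with an FPKM above 0.

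Unigene035419 was a minor part of the GPPS transcripts. It held 5.57% of the FPKM summed over the 6 tissues and the 19 unigenes annotated as GPPS, and 9 of the other 18 exceeded it in at least 1 tissue. Prenyl diphosphate synthases of this family make chains of several lengths, and 1 of the unigenes above it, Unigene214527, is annotated by the study both as GPPS and as farnesyl diphosphate synthase. Unigene214527 had an FPKM of 73.92 in young stem, 57.7 in inflorescence and 6.44 in mature leaf. Unigene080179 carries the same pair of annotations and was above Unigene035419 in all 6 tissues, between 26.34 in seed and 56.04 in young stem, a range of 2.13 times. A second pair of unigenes was higher in mature leaf than in young stem. Unigene086967 had 68.9 in mature leaf against 8.34 in young stem. Unigene113028 was highest in inflorescence, with 68.07, beside 66.72 in mature leaf and 16.63 in young stem. Unigene080179 thus had a range nearly as narrow as that of Unigene035419, with the same highest tissue, whereas the other 3 varied more over the tissues.

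The GES unigene, Unigene036779, encodes by its annotation the terpene synthase that commits geranyl diphosphate to geraniol. Its FPKM in young stem was 27.18, while both leaf stages, the pericarp, the seed and the inflorescence were listed at 0. An FPKM of 0 can be a failed estimate, and without counts no fold against these tissues is given. In young stem 5181 of 151729 unigenes with an FPKM above 0 were higher. The pattern itself was not rare, because 7914 unigenes were above 0 in young stem and listed at 0 in the other 5 tissues, which is 5.22% of the unigenes measured in young stem. Its level was unusual among them: these unigenes had a median FPKM of 1.32, only 8 reached 10, and only 1, with 44.11, was above Unigene036779. Of the 7914, 10 belonged to the iridoid, triterpenoid, gallotannin or cytochrome P450 lists of the study, and the next highest of these was Unigene014702, an amyrin oxidase of the triterpenoid list, with 7.52.

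**Figure D2:**
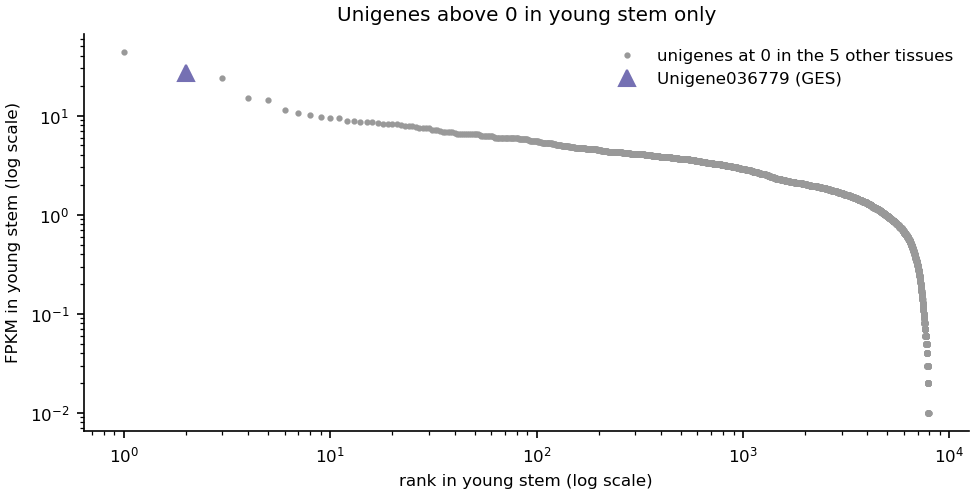
FPKM in young stem (y axis, log scale) against rank (x axis, log scale) for the 7914 unigenes listed at 0 in the 5 other tissues; each grey point is a unigene and the triangle is the GES unigene Unigene036779. It holds rank 2, with an FPKM of 27.18, and 8 unigenes in all reach an FPKM of 10.

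The other 6 unigenes annotated as GES reached no similar level in any of the 6 tissues described. The 7 GES unigenes together had an FPKM of 29.81 in young stem, of which Unigene036779 held 91.2%. Their sum came to 11.75 for mature leaf and 5.78 for young leaf, and was smaller for pericarp (3.83), inflorescence (1.66) and seed (0.27). Different unigenes made up these sums. In the leaves it was Unigene288660, with 8.41 in mature leaf and 4.31 in young leaf, followed by Unigene052149 with 3.18 in mature leaf. In pericarp it was Unigene290657, with 3.52. It was also above 0 in every other tissue described, from 0.16 in mature leaf to 2.35 in young stem. Unigene263703 stayed at or below 0.29. Among the 4 enzymes described here, GES thus had the lowest summed expression in each of the 6 tissues, in spite of the young stem value.

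Of the 2 unigenes for 8HGO, Unigene122572 was the more abundant in all 6 tissues. It had an FPKM of 590.95 in young stem, then 528.13 in young leaf, followed by pericarp at 494.27 and mature leaf at 482.6, with 358.74 for inflorescence and 106.56 for seed. The first 4 of these lay close together, mature leaf having 81.7% of the young stem level, and their order rests on the scaling of the libraries: with the median-ratio scaling, mature leaf in place of young stem was the highest. The largest step in the order was the one to seed, with 3.37 times between inflorescence and seed. Only 78 unigenes in young stem and 134 in young leaf had a higher FPKM, whereas in seed 937 did. It nevertheless remained above 99.4% of the unigenes measured in seed.

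Unigene035769, the other 8HGO unigene, had its low point in the other part of the fruit. The leaves had the most, with an FPKM of 223.52 at maturity and 203.41 when young, ahead of inflorescence with 167.91, young stem with 125, seed with 100.34 and pericarp with 38.48. Pericarp was thus the lowest tissue, and seed, the next in order, had 2.61 times its level. The number of unigenes above it ranged from 364 in mature leaf to 3267 in pericarp. Its range from highest to lowest was 5.81 times, close to the 5.55 times of Unigene122572, and 78.2% of the unigenes expressed in all 6 tissues had a smaller range.

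The balance between both 8HGO unigenes therefore differed by tissue. Unigene122572 was 12.8 times as high as Unigene035769 in pericarp and 4.73 times as high in young stem. The ratio was 2.60 for young leaf, 2.16 for mature leaf and 2.14 for inflorescence, and it was 1.06 for seed. In seed their levels were thus almost equal, while in pericarp the sum of both came to 92.8% from Unigene122572. Their sum reached 731.54 (young leaf), 715.95 (young stem) and 706.12 (mature leaf), a similar level reached with different proportions. Pericarp with 532.75 and inflorescence with 526.65 came next, and seed was lowest with 206.9.

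Together they accounted for most of the 8HGO expression in all 6 tissues, with the smallest share in seed. They held 99.0% of the FPKM of the 8 unigenes annotated as 8HGO in mature leaf and 98.4% in young leaf. The share was 95.4% for young stem, 93.8% for pericarp, 89.4% for inflorescence and 61.6% for seed. The remainder in seed came mainly from 3 unigenes, which are named here after their values were seen. Unigene107582 had 53.11 in seed against at most 6.26 elsewhere, Unigene222835 had 42.05 in seed and 12.89 in inflorescence, and Unigene108326 had 20.12 in seed and 17.62 in inflorescence. Alcohol dehydrogenases form a large family in plants that also serves lignin precursors and other aldehydes, so an 8HGO annotation by similarity does not fix the substrate.

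**Figure D3:**
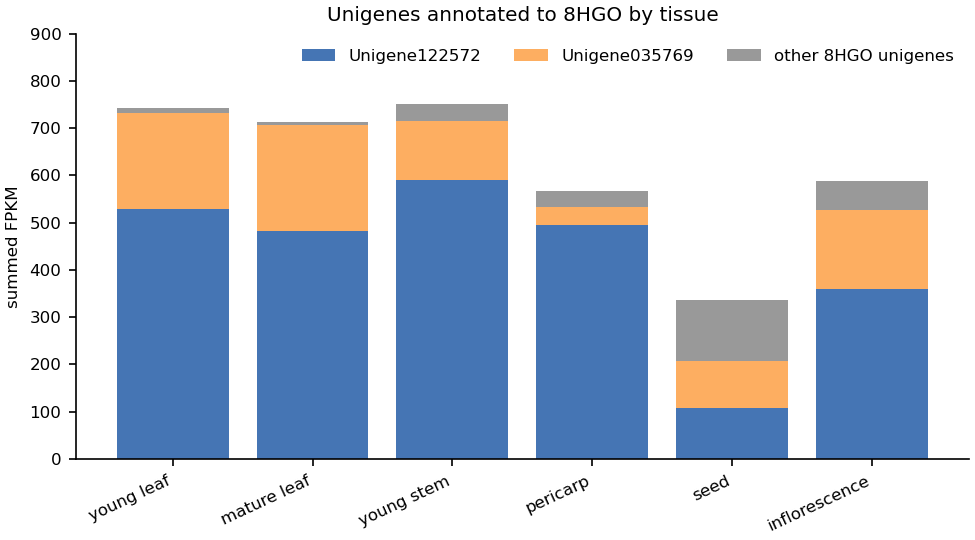
Summed FPKM (y axis, starting at 0) of the 8 unigenes annotated as 8HGO in 6 tissues (x axis), stacked as Unigene122572, Unigene035769 and the other 6 unigenes, with 1 library per tissue. The leaves and young stem reach between 713 and 750, and in seed the total is 336, of which both members hold 61.6%.

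The IS unigene, Unigene107858, stands for the reductase that opens the way to the iridoid ring. Young leaf had the highest FPKM with 5.87, ahead of pericarp with 4.31 and young stem with 3.91, while mature leaf had 1.52, inflorescence 1.1 and seed 0.9. The largest step in the order, 2.57 times, lay between young stem and mature leaf. In young leaf it was above 85.2% of the unigenes with an FPKM above 0, but in inflorescence above 34.7% and in seed above 35.7%, so that in those tissues it was below the median FPKM of 1.7 and 1.3, respectively. At these low values an FPKM rests on few fragments, and their number is unknown.

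As with GPPS, the member was a small part of its enzyme. Unigene107858 held 2.96% of the FPKM summed over the 8 IS unigenes and 6 tissues, and never more than 6.19% in a tissue. Unigene241827, which the study did not take as a candidate, led in all 6 tissues, from 36.2 in seed to 86.77 in mature leaf. Unigene078530 was high in pericarp, with 42.77, and had 1.93 in young stem. Unigene282791 had 28.65 in seed and 20.52 in pericarp, and Unigene259681 had 7.38 in young leaf and 7.22 in seed. The 3 most abundant IS unigenes thus peaked in mature leaf, pericarp and seed, and of these 4 only Unigene259681 had, like Unigene107858, its maximum in young leaf. Proteins of this family also reduce steroids and other carbonyl compounds, and the annotation does not separate these activities.

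Between tissues, 5 contrasts were described on the log2(FPKM + 1) scale, with 1 added to every FPKM before taking logs, and at least 2-fold on that scale was counted. They were set against all unigenes whose FPKM was 1 or more in either tissue. The shares of these that passed the count are given beside each contrast as background. Because the members were chosen with these values known, nothing is read from their number.

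Between the leaf stages the IS unigene stood apart. Of the 4 members tested, Unigene107858 was lower in mature than in young leaf, with a difference of -1.45 on the log2 scale and 3.86 times in FPKM, while 21.7% of 96318 unigenes were at least 2-fold lower and 20.5% higher in mature leaf. The other 3 members lay between -0.13 for Unigene122572 and 0.14 for Unigene035769, with Unigene035419 at 0.03. The GPPS and 8HGO unigenes thus had nearly the same level in both leaf stages, and with the median-ratio scaling Unigene122572 had a difference of 0.10.

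Between young stem and young leaf, no member with an FPKM above 0 in both tissues passed 2-fold. GES Unigene036779, listed at 0 in young leaf, was counted as higher in young stem without a fold, where 30.7% of 112853 unigenes were higher and 17.6% lower in young stem. Unigene035419 followed with a difference of 0.85, Unigene122572 with 0.16 (-0.05 with the median-ratio scaling), Unigene107858 with -0.48 and Unigene035769 with -0.70, beside a median over all tested unigenes of 0.38. The values of the early steps lay on both sides of 0 between these organs.

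Within the fruit the members split. Unigene122572 and Unigene107858 were lower in seed than in pericarp, with differences of -2.20 and -1.48 on the log2 scale, or 4.64 and 4.79 times in FPKM. Unigene035769 was higher in seed, with a difference of 1.36, and Unigene035419 differed by -0.18. In this contrast 27.3% of 123838 unigenes were at least 2-fold higher and 24.6% lower in seed. Of all tested unigenes, 3.81% lay below Unigene122572 and 83.8% below Unigene035769. The 8HGO unigenes thus lay on opposite sides of the median of 0.03, with Unigene122572 farther out.

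Among the 4 members tested, only Unigene035769 was at least 2-fold lower in pericarp than in young leaf. Its difference was -2.37 on the log2 scale and 5.29 times in FPKM. In this contrast 32.2% of 113135 unigenes were at least 2-fold higher and 23.5% lower in pericarp. The remaining members lay between -0.37 for Unigene107858 and 0.29 for Unigene035419. In inflorescence against young stem, Unigene107858 was at least 2-fold lower, with a difference of -1.23 on the log2 scale. GES Unigene036779, listed at 0 in inflorescence, was counted as lower without a fold. In that contrast 29% of 127226 unigenes were lower and 25.5% higher in inflorescence. Unigene122572 had -0.72, Unigene035419 -0.26 and Unigene035769 0.42.

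**Figure D4:**
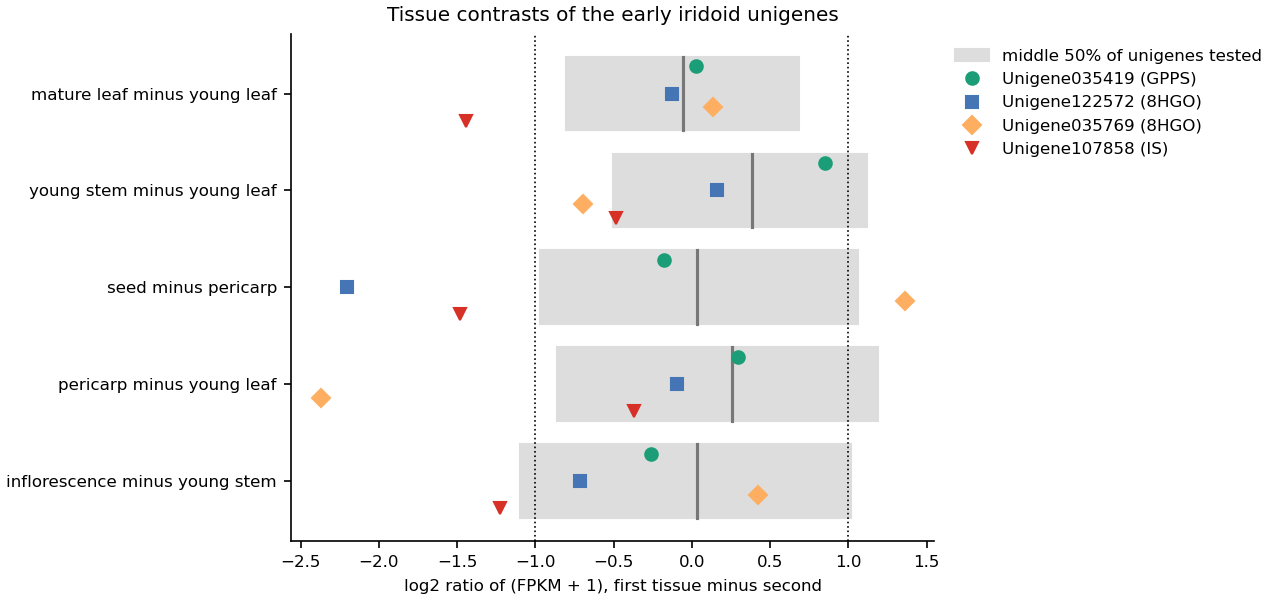
Log2 ratio of (FPKM + 1) (x axis) for 4 early iridoid unigenes in 5 tissue contrasts (y axis), where each symbol is a unigene, the grey box holds the middle 50% of all unigenes tested with their median as a line, and dotted lines mark 2-fold. In seed minus pericarp, Unigene122572 is at -2.20 and Unigene035769 at 1.36; Unigene036779 is not drawn because it is listed at 0 outside young stem.

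The same contrasts were counted over all 42 unigenes annotated to the 4 enzymes. In mature against young leaf, 25 of the 42 could be tested, of which 1 (4%) was at least 2-fold higher and 7 (28%) lower, beside 20.5% and 21.7% of all unigenes, and the median log2 difference was -0.06 in both. Of the 7, 4 were GPPS unigenes, 2 were IS unigenes and 1 was an 8HGO unigene. In young stem against young leaf, 7 (25%) were higher and 6 (21.4%) lower among 28, beside 30.7% and 17.6%, with a median of 0.16 beside 0.38. In seed against pericarp, 6 (22.2%) were higher and 7 (25.9%) lower among 27, beside 27.3% and 24.6%. Of the 7 8HGO unigenes tested in this contrast, 4 were at least 2-fold higher in seed and only Unigene122572 was at least 2-fold lower, although the sum over the enzyme was lowest in seed. In pericarp against young leaf the counts were 6 (22.2%) and 7 (25.9%) of 27, beside 32.2% and 23.5%, and in inflorescence against young stem 7 and 7 of 29 (24.1% each), beside 25.5% and 29%. The counts were thus nearly even between the directions in all contrasts but that of the leaf stages, with 1 higher and 7 lower. There the 28% lower lay near the 21.7% of all unigenes, and the 4% higher lay below their 20.5%. These counts were not repeated with the median-ratio scaling, which moved the median of all tested unigenes in that contrast by 0.18. Of the 42 unigenes, 11 had their highest FPKM in young stem, 9 in pericarp and 7 in inflorescence. Another 5 were highest in mature leaf, 5 in seed and 3 in young leaf, and 2 were listed at 0 in all 6 tissues. No minimum level was applied here, and some of these maxima were near 0, as low as 0.07 in pericarp and 0.06 in young stem. The same shares over all unigenes were not computed, so nothing is read from these counts.

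The relative level of the member unigenes of different steps also differed between tissues. Unigene122572 was 54.4 times as high as the GPPS unigene in young leaf and 48.7 times as high in mature leaf. The ratio was 40.8 for pericarp, 32.3 for young stem, 23.8 for inflorescence and 10.1 for seed. Its ratio to the IS unigene was smallest in young leaf, at 90.0 times, and largest in inflorescence, at 326 times. These ratios are between single unigenes and not between enzymes, as Unigene035419 held 5.57% of GPPS and Unigene107858 2.96% of IS. In the sums over each enzyme, 8HGO had 743.66 and GPPS 271.53 in young leaf, against 336.05 and 123.54 in seed. The fall of the members' ratio from young leaf to seed did not appear in these sums. Summed over all unigenes of an enzyme, 8HGO was the highest of the early enzymes in every tissue, between 336.05 in seed and 750.44 in young stem. GPPS ranged from 123.54 in seed to 283.28 in inflorescence, and IS lay between 68.66 in young stem and 125.75 in pericarp. G10H, the hydroxylase between GES and 8HGO, ranged from 35.55 in seed to 222.47 in mature leaf. Seed was the lowest tissue for GPPS, GES, G10H and 8HGO, but not for IS, whose lowest sum was in young stem.

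The similarity of profiles was described by Pearson's r of log2(FPKM + 1) over the 6 tissues, which share their plant and their library depths across all unigenes. No pair of members reached r = 0.9. The highest value was 0.77 between GPPS Unigene035419 and GES Unigene036779, with Spearman's rho of 0.65 and a range from 0.76 to 0.95 when any 1 tissue other than young stem was left out. It passed 0.9 without inflorescence only. As GES was above 0 in 1 tissue, this value says that GPPS was highest in young stem. The next was 0.69 between 8HGO Unigene122572 and IS Unigene107858, with a rho of 0.83, and it stayed between 0.66 and 0.80 when any 1 tissue was left out. Both were lowest in seed, but without seed r was 0.76. Between both 8HGO unigenes the value was r = 0.12, with a range from -0.14 to 0.68 when any 1 tissue was left out, and Unigene035769 had r = -0.21 with IS and -0.16 with GPPS. Adding the mature stem library, where the members were listed at 0 or nearly so, raised the pairs among GPPS and both 8HGO unigenes to between 0.92 and 0.96.

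The annotated unigenes most like each member were sought among 359 others of the study's iridoid, triterpenoid, gallotannin and cytochrome P450 lists and a mean FPKM of 1 or more. For Unigene122572 they were P450 Unigene288424 (r = 0.96, rho = 0.6), amyrin synthase Unigene081022 (r = 0.95, rho = 0.6) and Unigene220174 (r = 0.95, rho = 0.89). The last is annotated as loganic acid *O*-methyltransferase (LAMT), which methylates loganic acid to loganin. In seed, Unigene288424 was listed at 0 and Unigene081022 had an FPKM of 0.56. Unigene220174 had an FPKM of 269.3 in young leaf, and its level was 233.99 for young stem, 232.11 for pericarp, 120.28 for inflorescence, 91.67 for mature leaf and 13.51 for seed. With seed lowest in both, it was the 1 iridoid unigene of 59 with r of at least 0.9. In all, 13 of the 359 annotated unigenes reached r = 0.9 with Unigene122572, or 3.62%, beside 0.767% of 75188 unigenes with a mean FPKM of at least 1. The study filtered its P450 list by length and expression, so the sets compared are unlike, also for the other members below. It also took Unigene122572 as a candidate for its co-expression in these libraries, and nothing is read from this share.

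By Pearson's r, the annotated unigenes closest to Unigene035769 were of the shikimate pathway. Among the 3 with the highest r, an amyrin oxidase had the highest Spearman's rho. The list was not ranked by rho. 3-Deoxy-D-arabinoheptulosonate 7-phosphate synthase (DAHPS) Unigene085665, the entry enzyme of the shikimate pathway, had r = 0.96 (rho = 0.89), and Unigene083007, a 3-dehydroquinate dehydratase/shikimate dehydrogenase (DHQ/SDH), had r = 0.91 (rho = 0.89). Both are listed by the study under gallotannins. Unigene085665 had an FPKM of 252.18 in young leaf, 230.07 in mature leaf and 12.18 in pericarp, and Unigene083007 had 248.51, 218.06 and 16.13 in the same tissues. The third was amyrin oxidase Unigene016476 (r = 0.89, rho = 1), between 1.93 in pericarp and 14.76 in mature leaf. None of 59 iridoid unigenes reached r = 0.9 with Unigene035769, and 2 of the 359 annotated unigenes did, or 0.557%, beside 0.545% of all unigenes. This share is near the background, and nothing particular to Unigene035769 is read from it.

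**Figure D5:**
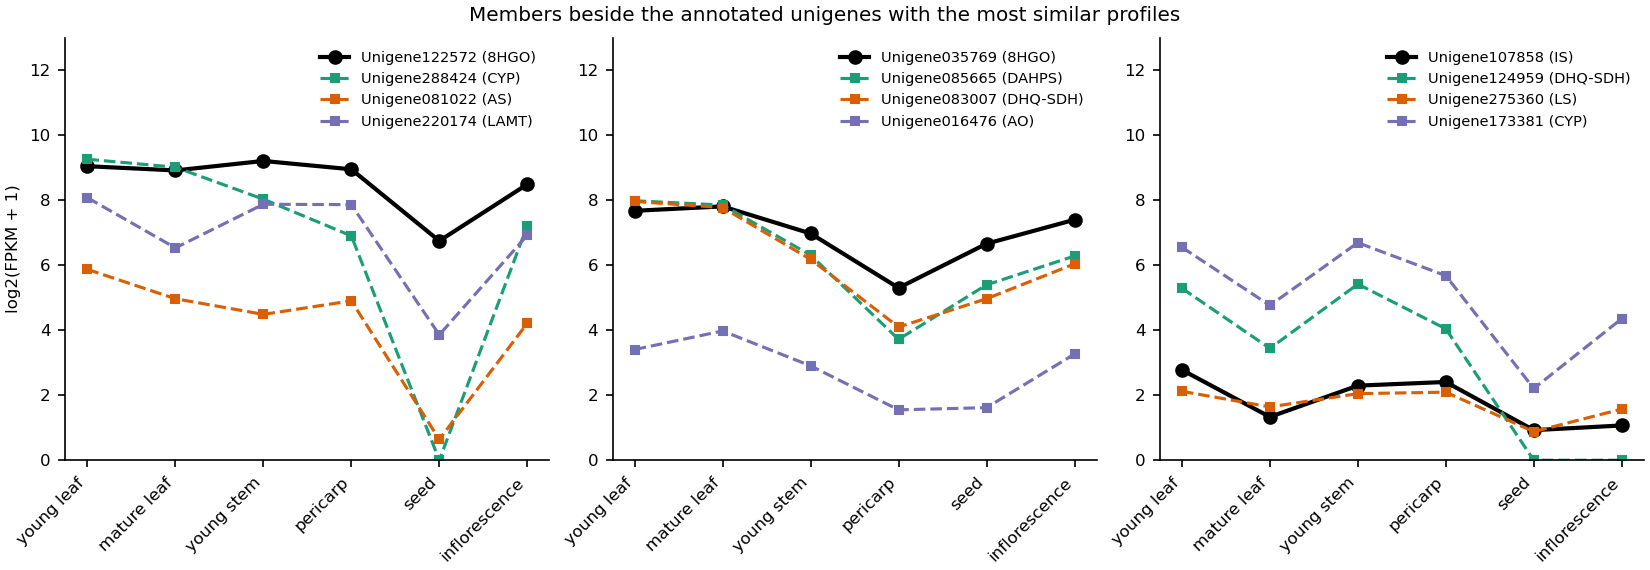
Log2(FPKM + 1) (y axis) by tissue (x axis) of Unigene122572, Unigene035769 and Unigene107858 (black lines) with the 3 annotated unigenes of highest Pearson's r (dashed lines), 1 library per point. Unigene122572 and its companions are lowest in seed, and Unigene035769, DAHPS Unigene085665 and DHQ/SDH Unigene083007 are lowest in pericarp.

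The other members had their closest companions outside the iridoid list. For IS Unigene107858 they were DHQ/SDH Unigene124959 (r = 0.896), lupeol synthase Unigene275360 (0.88) and P450 Unigene173381 (0.88), which had an FPKM from 3.62 in seed to 102.54 in young stem. None of the 359 was at or above 0.9 with Unigene107858, beside 0.596% of all unigenes. For GPPS Unigene035419 they were P450 Unigene112348 (r = 0.98), lupeol synthase Unigene008140 (0.96) and P450 Unigene073699 (0.94), all highest in young stem, with 5.94, 5.18 and 12.47. With Unigene035419, 5 of the 359 reached r = 0.9, or 1.39%, beside 0.983% of all unigenes, and 1 of these 5 was among the 59 iridoid unigenes. For GES they were Unigene014702 (r = 1), and the P450 unigenes Unigene035974 (0.99) and Unigene094196 (0.99), with 6.14 and 7.16 in young stem and at most 0.34 elsewhere. With Unigene036779, 9 of the 359 reached r = 0.9, or 2.51%, beside 0.733% of all unigenes, and an r of this kind is set by the single high tissue.

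The spread over tissues was also expressed as tau, an index on log2(FPKM + 1) that is 0 for equal levels and 1 for a unigene above 0 in 1 tissue only. Tau was 0.08 for Unigene122572, 0.13 for Unigene035769, 0.15 for Unigene035419, 0.42 for Unigene107858 and 1 for Unigene036779. Over 75189 unigenes with a mean FPKM of at least 1 the median was 0.46. The 3 members for GPPS and 8HGO had low values, with 1.82% to 8.20% of unigenes below them, the IS unigene was near the middle, and the GES unigene was above 96.2%. For 8HGO both measures of spread differed, since the ratio of highest to lowest tissue was larger for Unigene122572 than for 76.7% of the unigenes expressed in all 6 tissues, and tau on a log scale is small for any abundant unigene without a tissue near 0.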

How the data were processed

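Strand-specific libraries, 1 per tissue, were sequenced from 7 tissues. Per the study's methods, Trimmomatic cleaned the reads, 3 *de novo* assemblies were merged with CD-HIT-EST taking out redundancy, Bowtie 2.0 aligned the reads of each tissue, and the authors deposited FPKM values from RSEM. Versions of the other tools are not given in the sources used here. FPKM holds no read counts, so depth is known only relatively, from unigenes above 0 in exactly 2 libraries with FPKM of at most 5. The ratio of the 2 values found most often, in log2 bins of 0.04, was taken. RSEM divides fragments between similar unigenes, so values of near-identical copies are less certain. The table of all tissues and the 7 tissue tables held equal values.

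Enzyme names come from the study's lists and rest on sequence similarity. With 1 library per tissue no test was run. The pseudocount was 1, the filter an FPKM of at least 1, and the count threshold 2-fold. Named unigenes are the 5 members, up to 4 others per enzyme that exceeded every member of that enzyme in a tissue, the leading unigene of G10H and of each enzyme after IS, and the 3 annotated unigenes most like each member. The members and lists were chosen with earlier results of these data known. Alternatives covered the pseudocount, the filter, equal-sum and median-ratio scaling (over 5988 unigenes with FPKM of at least 10 in all 6 tissues), the coefficient, the tissues included and the list of unigenes. The mature stem library was left out of the main description. Values were computed in Python (3.11.15) using pandas (2.3.3), scipy (1.17.1) and numpy (2.4.6), drawn with matplotlib (3.10.9), and the computation was tested on simulated data.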

Additional observations from a re-analysis of the deposited data

How the results depend on the processing

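With 1 library per tissue, no alternative measures the spread between plants, and no paired analysis was possible because no group has a second sample. All 60 alternative values of the tissue contrasts of GPPS, 8HGO and IS kept their side of 2-fold, and all 8 of the ratios from highest to lowest tissue stayed within 1.5 times. The median-ratio scaling moved the median log2 difference of all tested unigenes by 0.18 in mature against young leaf and by -0.14 in young stem against young leaf, and it turned the small differences of Unigene122572 in these contrasts to 0.10 and -0.05.

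A minimum FPKM of 5 in place of 1 lowered the background counts, and in 2 contrasts it turned which direction had more unigenes. Higher and lower unigenes were then 1919 and 3347 in mature against young leaf, 5258 and 4374 in young stem against young leaf, 5749 and 6795 in seed against pericarp, 7250 and 6049 in pericarp against young leaf, and 9432 and 6056 in inflorescence against young stem. With the minimum of 1 they were 33785 and 30489 in seed against pericarp, and 32385 and 36890 in inflorescence against young stem. The smaller number of unigenes tested is part of that construction. With the median-ratio scaling, 25426 were higher and 20201 lower in mature leaf, in place of 19786 and 20906.

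Likeness depended on the tissues, the pseudocount and the coefficient. With mature stem, 3 pairs of members reached r = 0.9, and Unigene035419 with Unigene035769 went from -0.16 to 0.92. Without inflorescence 1 pair did. With mature stem the annotated unigenes at r of at least 0.9 numbered 35 for Unigene035419, 46 for Unigene122572, 32 for Unigene035769 and 7 for Unigene107858. With a pseudocount of 0.1 they numbered 2 for Unigene035419, 4 for Unigene036779, 23 for Unigene122572 and 4 for Unigene035769. With Spearman's rho they numbered 1 for Unigene036779, 15 for Unigene035769 and 4 for Unigene107858. Tau with a pseudocount of 0.1 was 0.0913 for Unigene035419 and 0.26 for Unigene107858, and with mature stem 0.29 for Unigene035419, 0.23 for Unigene122572 and 0.27 for Unigene035769. Counting only the study's candidates and the members, Unigene035419 held 10.4% of GPPS and Unigene107858 held 73.1% of IS, since fewer unigenes then made up the sum. The cause of the other differences was not tested.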

Other observations

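The unigene with the highest FPKM of G10H and of each enzyme after IS had its maximum in leaf or pericarp, apart from iridoid oxidase. Secologanin synthase Unigene075938 had 1929.28 in young leaf and 3.45 in seed, and LAMT Unigene220174 had 269.3 in young leaf and 13.51 in seed. 7-Deoxyloganic acid hydroxylase Unigene120969 had 263.8 in pericarp, 61.99 in mature leaf and 8.69 in young stem. G10H Unigene288502 had 93.48 in mature leaf against 6.34 in seed, and 7-deoxyloganetic acid glucosyltransferase Unigene274540 had 52.2 in young leaf against 0.34 in seed. Iridoid oxidase was represented by Unigene100054 alone, which had at most 1.94, in inflorescence.

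In the mature stem library, Unigene122572 had an FPKM of 0.45 and the other 4 members were listed at 0. Of the 42 unigenes annotated as GPPS, GES, 8HGO or IS, 29 were listed at 0 there, and 7 had an FPKM of at least 1. Each of these 7 stayed below 1% of its mature stem value in all other tissues.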
